A study of Mus musculus with 23 samples.

Results

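Transcripts of 10 genes that mark natural killer (NK) cells and CD8 T cells were examined in lung RNA-Seq libraries of 23 adult offspring. The genes were taken by symbol from a table of 35322 genes, and all 10 symbols were found. They comprise 5 NK receptor genes (Ncr1, Klrb1c, Klre1, Klra8 and Klrd1), 2 genes of cytotoxic granule proteins (Prf1 and Gzma), 2 CD8 co-receptor chains (Cd8a and Cd8b1) and the transcription factor gene Eomes. Of these, 9 passed the filter on low values and were tested, and Klra8 had no reads in any library.

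The animals were BALB/c offspring described as female in the methods of the study and aged 13 weeks. There were 7 Sham offspring, whose dams received saline, and 7 PM offspring, whose dams received fine particulate matter (PM2.5) before mating, through gestation and until weaning, and the offspring themselves were not dosed with particles. In 5 Sham-OVA and 4 PM-OVA offspring allergic airway disease (AAD) had been induced by sensitisation to ovalbumin (OVA) with alum followed by aerosolised OVA, and the lungs were taken on the day after the last challenge. RNA came from lungs in which function had been measured with methacholine. The Sham and PM groups received nebulised saline according to the methods of the study, whereas the labels name PBS, and the tissue is given as right lower lobe in the methods and as lung with the abbreviation RML in the labels. Litters are not given in the labels, so p-values measure the spread between these offspring, some of which may share a dam.

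NK cells and CD8 T cells are the main cytotoxic lymphocytes. Both kill target cells by releasing granules, in which perforin opens the target membrane and granzymes cleave proteins inside the cell. NK cells sense their targets through germline-encoded activating and inhibitory receptors, many of which read MHC class I, whereas CD8 T cells recognise peptide on MHC class I through the T cell receptor with CD8 as co-receptor. The lung holds a large resident and circulating NK population. OVA-induced AAD is known as a type 2 response in which CD4 T cells, eosinophils and group 2 innate lymphoid cells are prominent.

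4 of the 5 receptor genes lie in the NK gene complex on chromosome 6 of GRCm38, namely Klrb1c (chr6:128778485-128789215, minus strand), Klre1 (chr6:129577905-129585827, plus strand), Klrd1 (chr6:129591782-129598775, plus strand) and Klra8 (chr6:130115226-130129898, minus strand). Cd8b1 (chr6:71322788-71337494, plus strand) and Cd8a (chr6:71373427-71379173, plus strand) are neighbours on the same chromosome. Ncr1 (chr7:4337724-4345164, plus strand), Prf1 (chr10:61297833-61304680, plus strand), Gzma (chr13:113093825-113100981, minus strand) and Eomes (chr9:118478212-118486132, plus strand) lie elsewhere. The values count reads over the annotated gene, so none can be placed in a single exon or UTR.

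The promoters of Ncr1, Prf1 and Gzma are shown because these genes varied together in the saline libraries. RUNX factors, such as Runx3, bind the core TGTGGT, and T-box factors, such as Eomes and Tbx21, bind the core AGGTGT. Capitals mark both motifs on either strand (ACCACA and ACACCT on the opposite strand) in the 250 bases upstream of the RefSeq start, on GRCm38.p6, from chr7:4337465-4337714 (plus strand), chr10:61297586-61297835 (plus strand) and chr13:113100982-113101231 (minus strand), each written in the direction of transcription. This reference is not the BALB/c genome.
Ncr1: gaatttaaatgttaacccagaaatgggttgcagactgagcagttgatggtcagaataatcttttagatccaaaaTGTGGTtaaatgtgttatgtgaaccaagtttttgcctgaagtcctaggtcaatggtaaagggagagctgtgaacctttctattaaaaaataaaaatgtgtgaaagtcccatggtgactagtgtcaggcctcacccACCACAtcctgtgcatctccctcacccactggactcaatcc
Prf1: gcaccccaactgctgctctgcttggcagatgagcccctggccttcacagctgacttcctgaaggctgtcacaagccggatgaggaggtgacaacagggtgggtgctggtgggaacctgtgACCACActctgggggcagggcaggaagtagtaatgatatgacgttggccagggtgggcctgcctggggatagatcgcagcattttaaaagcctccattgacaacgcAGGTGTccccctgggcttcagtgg
Gzma: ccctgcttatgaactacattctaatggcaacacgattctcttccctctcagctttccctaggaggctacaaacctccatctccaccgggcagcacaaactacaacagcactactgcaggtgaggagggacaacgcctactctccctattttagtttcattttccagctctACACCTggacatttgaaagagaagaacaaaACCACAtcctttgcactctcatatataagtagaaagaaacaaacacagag
The Ncr1 window held the RUNX core 2 times and no T-box core. Those of Prf1 and Gzma held 1 of each core, and no matches overlapped. Of the 8 genes with a RefSeq promoter (Klrd1 and Cd8b1 were not in the table), 5 held the RUNX core, against 14.2% of 27025 promoters, and 2 held the T-box core, against 3241 of the 27025. The motifs were chosen after the sequences had been seen, so these shares are no test of enrichment. These are matches of letters, and binding was not measured.

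The reads on genes ranged from 13089691 to 17393579 in the saline libraries and from 2298645 to 12355561 in the OVA libraries. Values are in RPM, which are reads on a gene scaled to a total per library, without correction for gene length. Summed over all genes they ran from 830189 to 924025 RPM in the saline libraries and from 714175 to 857179 RPM in the OVA libraries. The scaling total was therefore not the reads on genes alone. A single read was worth 0.0502 to 0.0688 RPM in the saline groups and 0.311 RPM in the shallowest library, Sham-OVA replicate 3. It was worth 0.133 and 0.182 RPM in the third and the fourth replicate of PM-OVA. These 3 shallow libraries also stood low for the genes described here. All 9 detected genes were lowest of their group in Sham-OVA replicate 3, where 64.4% of all tested genes were, and 8 of 9 were lower in both PM-OVA replicates 3 and 4 than in the other two, against 56.9% of all tested genes. The part of depth in the results was not tested, and values without these libraries are given beside part of the results. Without Sham-OVA replicate 3, the log2 fold changes after OVA in Sham offspring were -1.26 for Ncr1, -1.08 for Klre1 and -0.82 for Prf1. They were -0.96 for Eomes, -0.58 for Cd8a, -0.19 for Gzma and -0.10 for Cd8b1. Sham replicate 1 went against the stated sex, with 54.0 RPM of the Y-linked gene Eif2s3y, which was at 0 in the other 22 libraries, and 0.289 RPM of Xist, against at least 174 RPM elsewhere. Without it, 6 of 9 genes rather than 7 were called lower in Sham-OVA than in Sham, beside 46.3% of all tested genes. The difference was Klrb1c (adjusted p = 0.0512, limma).

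Per kilobase of exon, Gzma was the most abundant of the genes in every group, with a mean of 50.2 ± 20.6 RPM per kb in Sham (SD, n = 7), followed by Prf1 at 11.5 ± 4.12. Klrd1 (8.34 ± 2.57) and Ncr1 (8.32 ± 3.54) did not differ beyond their spread. Cd8b1 (4.46 ± 1.37) and Cd8a (3.05 ± 0.694) came next and overlapped, followed by Eomes (2.29 ± 0.662), Klrb1c (1.40 ± 0.526) and Klre1 (1.04 ± 0.370). Gzma and Prf1 kept the first and the second place in all 4 groups. Ncr1 ranked above Cd8b1 in Sham and PM and below it in both OVA groups.

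After OVA challenge, Ncr1, Klre1, Prf1 and Eomes were lower, whereas Gzma and Cd8b1 stayed near the median gene. Klrd1, Klrb1c and Cd8a were also called lower in both Sham and PM offspring. Under other processing each of them lost the call in PM offspring, and Klrb1c and Cd8a lost it in Sham offspring too. In Sham offspring 7 of 9 tested genes fell at an adjusted p under 0.05 (limma with Benjamini-Hochberg adjustment over 16795 genes), with log2 fold changes from -1.46 to -0.75. In PM offspring 8 of 9 fell, with log2 fold changes from -2.09 to -0.45. The background was high, since 47.5% of all tested genes were called lower in Sham-OVA than in Sham and 45.2% in PM-OVA than in PM, with medians over all genes of -0.48 and -0.43 against -1.15 and -1.14 over the 9 genes. The study defined DEGs with DESeq2 on raw counts, by an adjusted p below 0.000001 and a change of more than 1 in log2 units. Applied to limma here, that threshold was passed by none of the 9, against 2.53% and 0.0238% of genes in the lower direction. With DESeq2 on recovered reads, the lowest adjusted p of the 9 was 1.46e-04 in Sham offspring, for Ncr1. In PM offspring it was 1.22e-04, for Klre1, also with DESeq2. The groups did not overlap for 2 genes in Sham offspring (Ncr1 and Eomes) and for 4 in PM offspring (Ncr1, Klre1, Prf1 and Eomes), against 35% and 28.6% of all tested genes that were lower without overlap. In bulk lung, fewer cells of a type cannot be told apart from less RNA per cell.

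**Figure D1:**
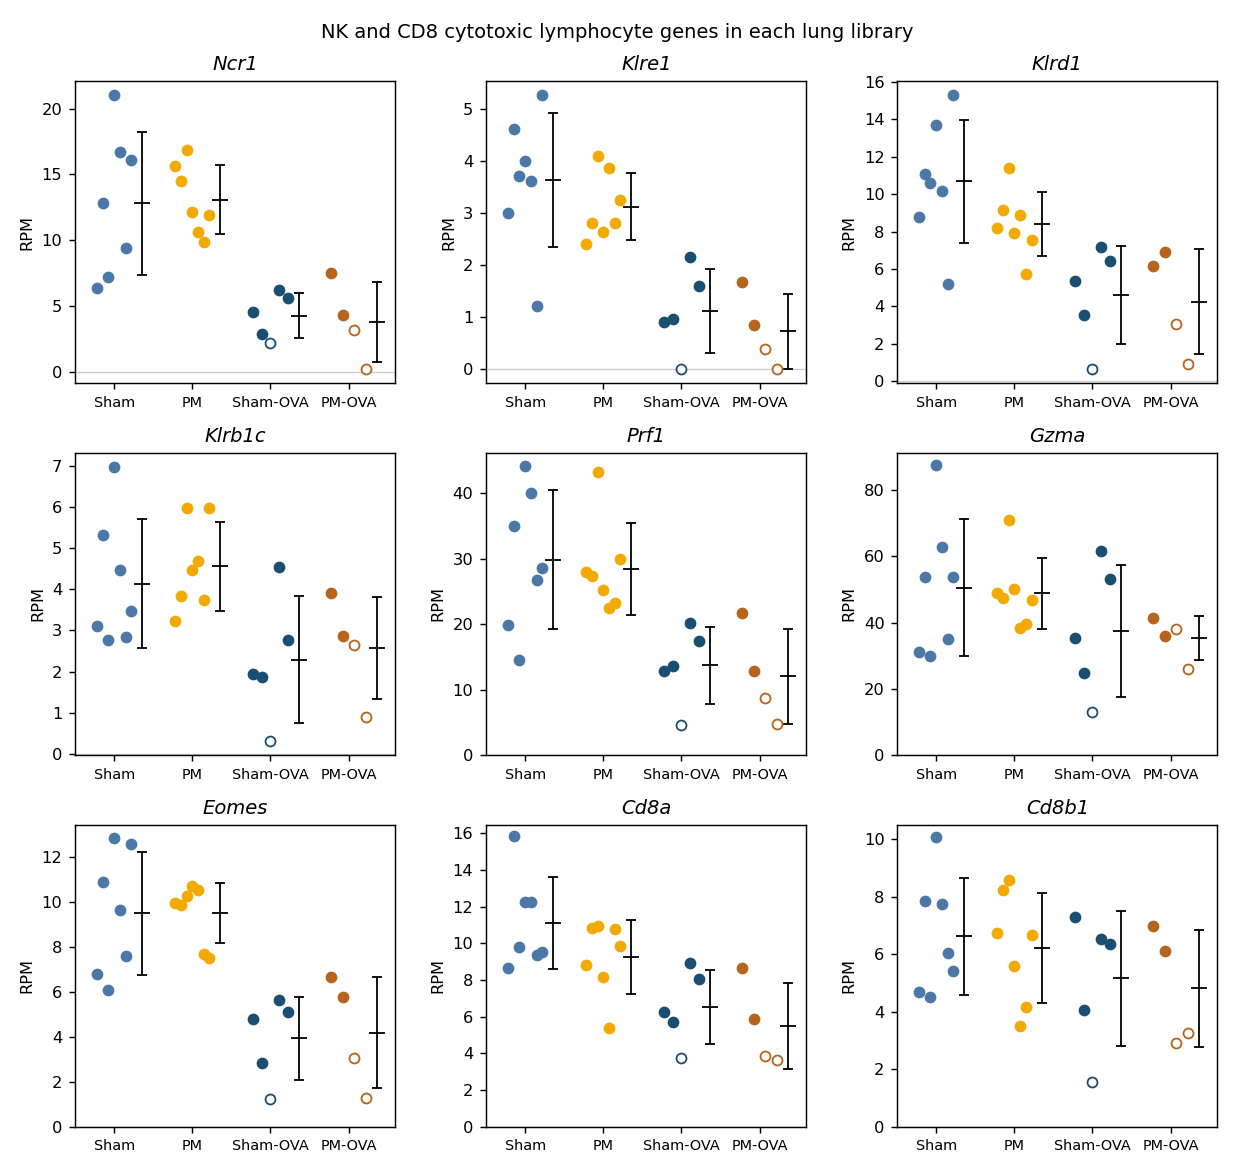
RPM of the 9 detected genes (vertical axes, starting at or just below 0) in each library of the 4 groups (horizontal axis), with 1 point per library, open points for the 3 shallow libraries, and bars for the mean and SD. For Ncr1 the OVA libraries of each maternal group sit below its saline libraries (at most 6.21 RPM in Sham-OVA against at least 6.41 RPM in Sham, and at most 7.53 RPM in PM-OVA against at least 9.84 RPM in PM), whereas those of Gzma overlap.

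Ncr1 encodes NKp46, an activating receptor that is close to exclusive to NK cells and related innate lymphocytes. It ranged from 6.41 to 21.1 RPM in Sham (median 12.9, n = 7) and from 9.84 to 16.8 RPM in PM (median 12.2, n = 7). The 5 Sham-OVA libraries held 4.52, 2.86, 2.17, 6.21 and 5.62 RPM, and the 4 PM-OVA libraries 7.53, 4.33, 3.19 and 0.182 RPM. All OVA libraries thus lay below all saline libraries of the same maternal group, and the lowest value, in PM-OVA replicate 4, was 1 read. Ncr1 fell in both cohorts, with a log2 fold change of RPM + 0.5 of -1.45 in Sham (SE 0.323, adjusted p = 0.0011, limma) and -2.09 in PM offspring (SE 0.501, adjusted p = 0.00298). The PM value was -1.35 without PM-OVA replicate 4 (adjusted p = 0.00108) and -1.10 without both shallow PM-OVA libraries (adjusted p = 0.0028).

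Klre1 and Klrd1 encode lectin-like receptor chains. Klrd1 is CD94, the partner of the NKG2 receptors, and Klre1 forms pairs with the Klri proteins. Klre1 ranged from 1.22 to 5.27 RPM in Sham (median 3.70) and from 2.41 to 4.10 RPM in PM (median 2.81). In Sham-OVA it was 0.903, 0.978, 0, 2.15 and 1.61 RPM, and in PM-OVA 1.68, 0.850, 0.398 and 0 RPM. The PM groups did not overlap, whereas Sham replicate 6, at 1.22 RPM, lay below 2 of the Sham-OVA libraries. A library at 0 excludes only levels above 3 reads, 0.932 RPM in Sham-OVA replicate 3 and 0.545 RPM in PM-OVA replicate 4, and such limits cover counting error alone. Klre1 fell, with log2 fold changes of -1.46 in Sham (SE 0.383, adjusted p = 0.00362) and -1.74 in PM offspring (SE 0.328, adjusted p = 6.77e-04), the latter being -1.06 without the shallow libraries (adjusted p = 0.00413).

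Klrd1 ranged from 5.17 to 15.3 RPM in Sham (median 10.6) and from 5.74 to 11.4 RPM in PM (median 8.19). The Sham-OVA libraries held 5.35, 3.54, 0.621, 7.17 and 6.43 RPM and the PM-OVA libraries 6.18, 6.88, 3.05 and 0.908 RPM. The OVA and saline groups overlapped in both cohorts, with PM-OVA replicates 1 and 2 above the lowest PM library. Klrd1 fell, with log2 fold changes of -1.33 in Sham (adjusted p = 0.0105, limma) and -1.14 in PM offspring (adjusted p = 0.0185). The Sham value was -0.85 without Sham-OVA replicate 3 (adjusted p = 0.00541). In PM offspring it was -0.65 without PM-OVA replicate 4 (adjusted p = 0.0452), and without the shallow libraries the call was lost (log2 fold change -0.32, adjusted p = 0.227), as it was in PM offspring with edgeR (adjusted p = 0.0991) and DESeq2 (adjusted p = 0.0509).

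Klrb1c, which encodes NK1.1 in C57BL/6 mice, is a member of the Klrb1 family of lectin-like receptors. It was between 2.78 and 6.97 RPM in Sham (median 3.46) and between 3.23 and 5.98 RPM in PM (median 4.48). The Sham-OVA values were 1.95, 1.88, 0.311, 4.54 and 2.78 RPM and those of PM-OVA 3.90, 2.86, 2.66 and 0.908 RPM. In each cohort a single OVA library, Sham-OVA replicate 4 or PM-OVA replicate 1, reached into the saline range, with Sham-OVA replicate 5 just below it. The fall was called narrowly, with log2 fold changes of -0.89 in Sham (adjusted p = 0.0449) and -0.80 in PM offspring (adjusted p = 0.0275), which were -0.50 without Sham-OVA replicate 3 and -0.46 without PM-OVA replicate 4. It was lost on leaving out any of 8 of the 12 libraries in Sham offspring, where adjusted p reached 0.0951, and any of 3 of 11 in PM offspring (PM replicates 3 and 7 and PM-OVA replicate 4), where it reached 0.0913. The call was kept under 4 of 12 other settings in each cohort. Those that lost it included median-of-ratios scaling, quantile normalisation, edgeR, DESeq2 and leaving out the shallow libraries, with adjusted p from 0.0951 to 0.348 in Sham and from 0.104 to 0.22 in PM offspring. Of the 50-base stretches of Klrb1c transcripts, 17.0% also occur in other genes, mainly of the same family, so its reads are less certain than those of Ncr1, Klrd1, Prf1, Gzma and Cd8a, which share none.

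Klra8 encodes Ly49H, an activating receptor for a cytomegalovirus protein. BALB/c mice are known to lack Ly49H, and the reference annotation is that of C57BL/6J. No read was counted on Klra8 in the 23 libraries, which allows a level of up to 0.00886 RPM over all libraries and of up to 0.151 to 0.932 RPM in a single library. Of 11 listed Klra genes, 9 stayed under 0.5 RPM in every library, and only Klra2 (at most 6.21 RPM) and Klra17 (at most 3.51 RPM) exceeded it. Klra8 shares 33.1% of its 50-base transcript stretches with other Klra genes, and how reads were assigned among such copies was not tested.

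Prf1 encodes perforin. It ranged from 14.5 to 44.2 RPM in Sham (median 28.6) and from 22.4 to 43.2 RPM in PM (median 27.4). The Sham-OVA libraries held 12.8, 13.6, 4.66, 20.2 and 17.4 RPM and the PM-OVA libraries 21.8, 12.8, 8.76 and 4.72 RPM. The PM groups were separate by a small margin, and Sham replicate 3 lay below 2 Sham-OVA libraries. Prf1 fell, with log2 fold changes of -1.15 in Sham (SE 0.337, adjusted p = 0.00753) and -1.37 in PM offspring (SE 0.319, adjusted p = 0.00246), the latter being -0.72 without the shallow libraries (adjusted p = 0.0268).

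Gzma encodes granzyme A, the granzyme that resting NK cells carry in quantity. Its Sham and Sham-OVA ranges overlapped widely, at 29.8 to 87.5 RPM (median 53.6) against 35.4, 24.7, 13.0, 61.5 and 53.0 RPM. PM libraries ranged from 38.4 to 70.9 RPM (median 47.3), and PM-OVA libraries held 41.5, 35.9, 38.1 and 26.0 RPM. The log2 fold change was -0.52 in Sham offspring (95% confidence interval -1.28 to 0.25, adjusted p = 0.212) and -0.45 in PM offspring, where it was called (adjusted p = 0.0408). The PM call was lost on leaving out any of 8 of the 11 libraries, with adjusted p up to 0.143, and under 9 of the 12 other settings tried.

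Eomes, a T-box factor needed for NK cell maturation and for memory CD8 T cells, was the other gene whose groups were separate in both cohorts. It ranged from 6.08 to 12.9 RPM in Sham (median 9.64) and from 7.51 to 10.7 RPM in PM (median 9.97). Sham-OVA libraries held 4.79, 2.86, 1.24, 5.66 and 5.11 RPM and PM-OVA libraries 6.65, 5.80, 3.05 and 1.27 RPM. Eomes fell, with log2 fold changes of -1.26 in Sham (SE 0.312, adjusted p = 0.00242) and -1.28 in PM offspring (SE 0.323, adjusted p = 0.00416). Without the shallow libraries the PM value was -0.57 (adjusted p = 0.0202).

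Of the CD8 co-receptor chains, Cd8a was called lower in both cohorts and Cd8b1 in neither. Cd8a, the chain found in both CD8 homodimers and heterodimers and also on some dendritic cells, ranged from 8.66 to 15.8 RPM in Sham (median 9.78) and from 5.40 to 10.96 RPM in PM (median 9.85). Sham-OVA libraries held 6.25, 5.72, 3.73, 8.92 and 8.03 RPM and PM-OVA libraries 8.67, 5.87, 3.85 and 3.63 RPM. Only Sham-OVA replicate 4 reached the Sham range, whereas 2 of 4 PM-OVA libraries lay within that of PM. Cd8a fell with a log2 fold change of -0.75 in both Sham (adjusted p = 0.00837) and PM offspring (adjusted p = 0.0223). In Sham offspring the call was lost under median-of-ratios scaling (-0.40, adjusted p = 0.0515), quantile normalisation (-0.26, adjusted p = 0.192) and edgeR (-0.32, adjusted p = 0.136). In PM offspring the call was lost without PM-OVA replicate 3 (log2 fold change -0.62, adjusted p = 0.0743), without PM-OVA replicate 4 (-0.59, adjusted p = 0.0728) and without all shallow libraries (-0.32, adjusted p = 0.308). It was also lost there under median-of-ratios scaling (adjusted p = 0.104), quantile normalisation (0.227), edgeR (0.143), DESeq2 (0.138) and the replicate block (0.0672).

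Cd8b1, the beta chain that marks conventional CD8 T cells, overlapped in both cohorts. It ranged from 4.52 to 10.1 RPM in Sham (median 6.04) against 7.30, 4.06, 1.55, 6.53 and 6.35 RPM in Sham-OVA, and from 3.52 to 8.57 RPM in PM (median 6.66) against 6.99, 6.11, 2.92 and 3.27 RPM in PM-OVA. In each OVA group 2 libraries lay below the saline range and the rest within it. The log2 fold change was -0.43 in Sham (95% confidence interval -1.11 to 0.25, adjusted p = 0.248) and -0.36 in PM offspring (-0.996 to 0.272, adjusted p = 0.29), and the sign changed to positive under quantile normalisation in both cohorts and under edgeR and DESeq2 in Sham offspring.

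**Figure D2:**
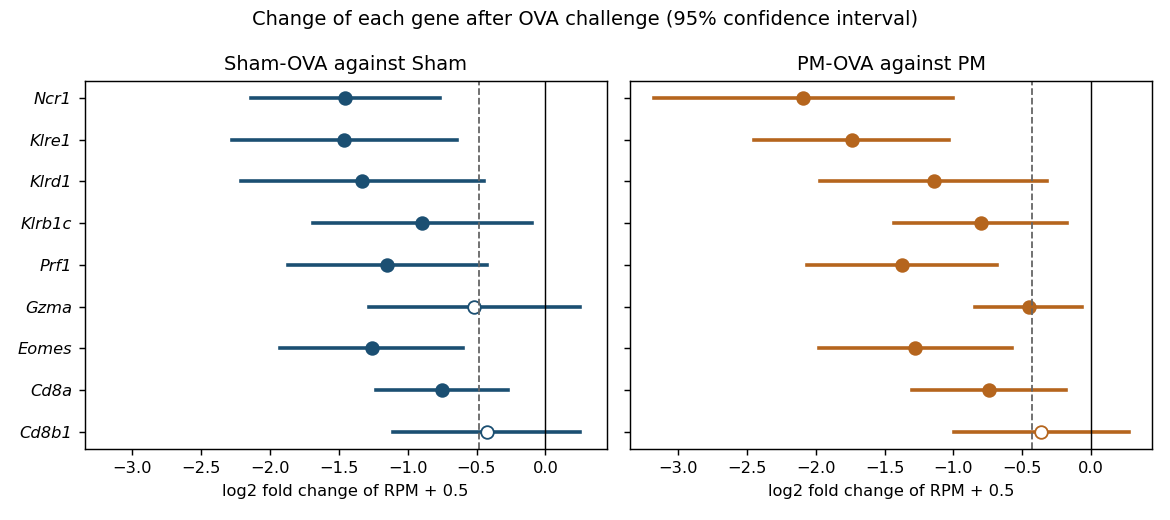
Log2 fold change of RPM + 0.5 (horizontal axes) of each tested gene (vertical axis) in Sham-OVA against Sham and PM-OVA against PM, with 95% confidence intervals, filled points where the adjusted p was under 0.05, a solid line at 0 and a dashed line at the median of all 16795 tested genes (-0.48 and -0.43). The intervals of Ncr1, Klre1 and Eomes lie left of the dashed line in both cohorts, and Gzma and Cd8b1 sit on or near it.

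Because the values of most genes were lower in the OVA libraries, each gene was also set against the median gene. With RPM as deposited, the median gene stood at -0.48 in Sham and at -0.43 in PM offspring on the log2 scale, against -0.16 and -0.12 under median-of-ratios scaling and -0.05 and -0.06 with edgeR on the recovered reads. Relative to the median of all genes, Ncr1 was at -0.97 in Sham and -1.66 in PM offspring, Klre1 at -0.98 and -1.31, Klrd1 at -0.85 and -0.72, Eomes at -0.78 and -0.85, and Prf1 at -0.67 and -0.95. Under median-of-ratios scaling, quantile normalisation, edgeR and DESeq2 these 5 genes stayed between -1.71 and -0.57. Cd8a was at -0.27 and -0.32 and Klrb1c at -0.41 and -0.37. Gzma (-0.04 and -0.03) and Cd8b1 (0.05 and 0.07) were at the median, and the sign of Gzma relative to it differed between scalings. In PM offspring without the shallow libraries, Ncr1 was at -0.97, Klre1 at -0.92, Prf1 at -0.58, Eomes at -0.43 and Klrd1 at -0.18. Calls of Ncr1, Klre1, Prf1 and Eomes were kept at an adjusted p under 0.05 in both cohorts under each of the 12 other settings and on leaving out each library in turn, the stricter threshold of the study excepted.

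**Figure D3:**
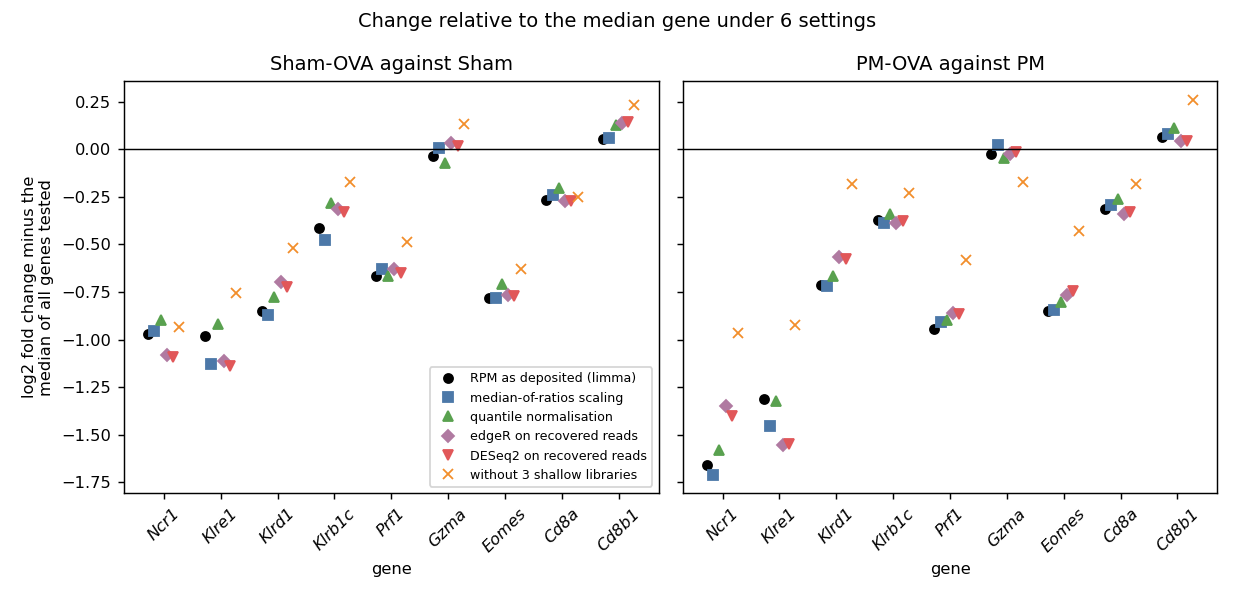
Log2 fold change minus the median log2 fold change of all genes tested (vertical axis) for each gene (horizontal axis) in Sham-OVA against Sham and PM-OVA against PM, with 1 symbol for each of 6 settings and a line at 0. Ncr1 and Klre1 lie at -0.75 or below under every setting shown, Cd8b1 lies above 0 and Gzma scatters around it, and leaving out the 3 shallow libraries raises most PM values.

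Of 10 markers of all T cells, 5 rose, 0 fell and 5 did not pass the test in each cohort (background of higher calls 20.6% in Sham and 20.1% in PM offspring), with Trbc2, the constant region of the T cell receptor beta chain, rising most, with log2 fold changes of 2.15 in Sham (adjusted p = 3.37e-06, limma) and 1.65 in PM offspring (adjusted p = 5.38e-05). Among 5 CD4 T cell markers, 2 rose in each cohort, Ctla4 most (1.90 in Sham offspring). Ratios within a library do not depend on scaling, and those reported here were chosen after their values had been seen and were not tested. The ratio of Cd8a to Cd3e RPM was between 0.415 and 1.06 in Sham (median 0.667) and between 0.137 and 0.289 in Sham-OVA (median 0.210). In PM it was between 0.389 and 0.711 (median 0.506) and in PM-OVA between 0.143 and 0.259 (median 0.196). The Cd8b1 to Cd3e ratio likewise did not overlap, at 0.331 to 0.488 in Sham against 0.0909 to 0.229 in Sham-OVA and 0.227 to 0.540 in PM against 0.108 to 0.211 in PM-OVA. Ncr1 over Cd3e had medians of 0.723 in Sham and 0.127 in Sham-OVA, against 0.777 for PM and 0.134 for PM-OVA. Thus the CD8 chains and Ncr1 were lower relative to the pan-T-cell transcript Cd3e in every OVA library than in any saline library of the same maternal group. T cell markers had a median log2 fold change of 0.80 in Sham and 0.43 in PM offspring, against -0.48 and -0.43 for all genes. A gene at the median of all genes, as Cd8b1 was, would also fall relative to a rising T cell marker. How many other genes separated from Cd3e in this way was not counted.

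The ratio of Ncr1 to Cd8b1 separated less sharply. It ranged from 1.37 to 2.97 in Sham and from 0.619 to 1.40 in Sham-OVA, which overlapped, and from 1.76 to 3.02 in PM and from 0.0556 to 1.09 in PM-OVA, which did not. Cd8b1 over Cd8a overlapped between Sham (0.462 to 0.824) and Sham-OVA (0.417 to 1.167).

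No difference between PM and Sham offspring was detected for these genes. Of the 9 genes, 0 were called between PM and Sham by limma and 0 had an unadjusted p under 0.05, and the differences ran from -0.29 for Klrd1 to 0.16 for Klrb1c on the log2 scale, with 95% confidence intervals between -0.70 and 0.61. Over all genes 0% were called (4.35% at an unadjusted p under 0.05), and edgeR and DESeq2 also called 0. Between PM-OVA and Sham-OVA, 0 of the 9 genes were called, with differences from -0.52 for Ncr1 to 0.25 for Klrb1c and intervals reaching from -2.01 to 1.46, so that a difference of several-fold was not excluded at this depth and number of animals. Over all genes limma called 0% (1.86% unadjusted), edgeR 0 genes and DESeq2 1.

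Whether OVA changed these genes by different amounts in PM and Sham offspring was tested as an interaction, with all 4 groups in the fit. None of the 9 genes was called by limma, and 0 had an unadjusted p under 0.05. Ncr1 had the most negative estimate, -0.64 (95% confidence interval -1.90 to 0.63, adjusted p = 1.00), and Klrd1 the most positive, 0.19 (-1.05 to 1.42, adjusted p = 1.00). Without PM-OVA replicate 4 all 9 estimates were above 0, from 0.09 to 0.68. Over all genes limma called 0% (5.08% unadjusted), edgeR 0 genes, DESeq2 2, and limma 721 without the shallow libraries, 0 of them among the 9.

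Other NK receptor genes showed a mixed pattern. Of 28 genes listed, 27 were in the table and 14 were tested, of which 4 fell and 1 rose in Sham offspring and 5 fell and 1 rose in PM offspring. Over all genes 47.5% and 45.2% were called lower and 20.6% and 20.1% higher. Under quantile normalisation 2 of the 14 were lower and 4 higher in Sham offspring, beside 34.6% of all genes lower and 5484 of 16795 higher. With edgeR 2 were lower and 3 higher there, beside 33.8% of all genes lower and 5584 of 16795 higher. Cd226 (DNAM-1, an activating receptor) fell most in both, with log2 fold changes of -1.84 in Sham (adjusted p = 3.75e-06, limma) and -2.62 in PM offspring (adjusted p = 2.49e-04). Klrk1 (NKG2D), with a mean of 7.73 ± 2.24 RPM in Sham (SD, n = 7), fell in both (-0.84 and -0.62). Klri2, a partner of Klre1, fell likewise (-0.95 and -0.90). The medians over all genes were -0.48 and -0.43, and Klrk1 and Klri2 were named after the values had been seen. Tigit, a checkpoint receptor also found on regulatory T cells, rose in Sham (1.21) and Klrb1a in PM offspring (1.175). Il2rb, a receptor chain for IL-15 and IL-2, had a log2 fold change of -0.64 in Sham (adjusted p = 0.064) and fell in PM offspring (-0.81).

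The adaptor and proximal signalling genes, many of which T cells and myeloid cells share, were also examined. Of 11 tested, 5 rose and 2 fell in each cohort. Over all genes 20.6% rose and 47.5% fell in Sham, and 20.1% rose and 45.2% fell in PM offspring. Hcst (DAP10), the NKG2D adaptor, rose most (2.03 in Sham and 1.42 in PM offspring). Under median-of-ratios scaling 8 were called higher in each cohort, beside 4927 genes in Sham and 4883 in PM offspring of 16753 tested.

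Of 14 tested granule and exocytosis genes, 3 rose and 5 fell in Sham offspring and 3 rose and 6 fell in PM offspring. Over all genes 47.5% and 45.2% were called lower and 20.6% and 20.1% higher, so these falls were no more frequent than among all genes. The higher calls numbered 6 in each under median-of-ratios scaling, beside 4927 and 4883 of 16753 genes. Gzmb (granzyme B) fell most in Sham offspring (-1.45, adjusted p = 0.00221), from a mean of 9.66 ± 3.54 RPM in Sham (SD, n = 7) to 3.40 ± 1.78 RPM in Sham-OVA (n = 5). Stx11, a syntaxin of lytic granule fusion, fell most in PM offspring (-1.45). Its binding partner Stxbp2 rose most in both (0.98 and 1.07). Among 7 tested secreted effectors and death ligands, 1 rose and 2 fell in each cohort, beside the same shares of all genes. The largest rise was that of the chemokine gene Ccl4 (2.66 and 1.40) and the largest fall that of the death ligand gene Tnfsf10, or TRAIL (-2.92 and -3.12). Tnfsf10 went from a mean of 166 ± 51.8 RPM in Sham (SD, n = 7) to 22.8 ± 11.1 RPM in Sham-OVA (n = 5), and is also made by other cells. Without the shallow libraries Ccl4 was not called in PM offspring (0.87, adjusted p = 0.0508). Under median-of-ratios scaling 3 secreted effectors were called higher in Sham and 2 in PM offspring, beside the same numbers of all genes. Ifng was below the filter, with at most 0.657 RPM in any library.

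Of 10 tested transcription factor genes, 2 rose and 3 fell in Sham and 1 rose and 3 fell in PM offspring. Over all genes 47.5% and 45.2% were lower and 20.6% and 20.1% higher. Under median-of-ratios scaling 5 and 3 were called higher, beside 4927 and 4883 of 16753 genes. Zeb2, which acts late in NK and CD8 effector differentiation and is also expressed in myeloid cells, fell most (-1.91 and -2.09). Id2, needed by innate lymphocytes, rose (0.85 and 0.67). Tbx21 (T-bet), the T-box partner of Eomes, had log2 fold changes of -0.54 (adjusted p = 0.105) and -0.48 (adjusted p = 0.0618). Of 12 cytokine and receptor genes, 3 rose and 6 fell in Sham and 2 rose and 7 fell in PM offspring, beside 47.5% and 45.2% of all genes lower. In Sham offspring 4 were higher and 4 lower under median-of-ratios scaling, quantile normalisation and edgeR. Of all genes 4927 of 16753, 5484 of 16795 and 5584 of 16795 were then higher, and 6361, 5812 and 5669 lower. In PM offspring 4 were higher and 3 lower with edgeR, beside 5120 higher and 5095 lower of 16795 genes. Il12rb2, the signalling chain of the IL-12 receptor, fell most in Sham (-1.99), and Il18r1, an IL-18 receptor chain, in PM offspring (-1.66). The largest rises were those of Il21r in Sham (1.20) and Il12rb1 in PM offspring (0.86).

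Of 12 tested trafficking genes, 3 rose and 4 fell in Sham and 3 rose and 5 fell in PM offspring, beside the same shares of all genes. In Sham offspring 6 were higher and 4 lower under quantile normalisation, edgeR and DESeq2. Over all 16795 genes 5484, 5584 and 5286 were then higher and 5812, 5669 and 6391 lower. Under median-of-ratios scaling 5 were higher and 4 lower in Sham offspring, beside 4927 higher and 6361 lower of 16753 genes. Itga2 (CD49b), an integrin used to mark NK cells in BALB/c mice, fell most in both (-2.03 and -2.22), though it is also carried by other cells. S1pr5, the receptor by which NK cells leave tissues, fell in both (-1.73 and -1.84). The chemokine genes Cxcl10 in Sham (2.18) and Cxcl9 in PM offspring (1.61), whose products attract Cxcr3-bearing lymphocytes, rose most. Of 7 tested genes for MHC class I and its loading, the ligands that NK and CD8 receptors read, 6 rose and 0 fell in each cohort, led by H2-K1 in Sham (2.15) and Tap2 in PM offspring (2.00). Over all genes 20.6% rose in Sham and 20.1% in PM offspring. The direction of each of the 47 changes that the naming rule picked from the lists was the same under the 4 other scalings, and 44 of them were called under all 4.

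**Figure D4:**
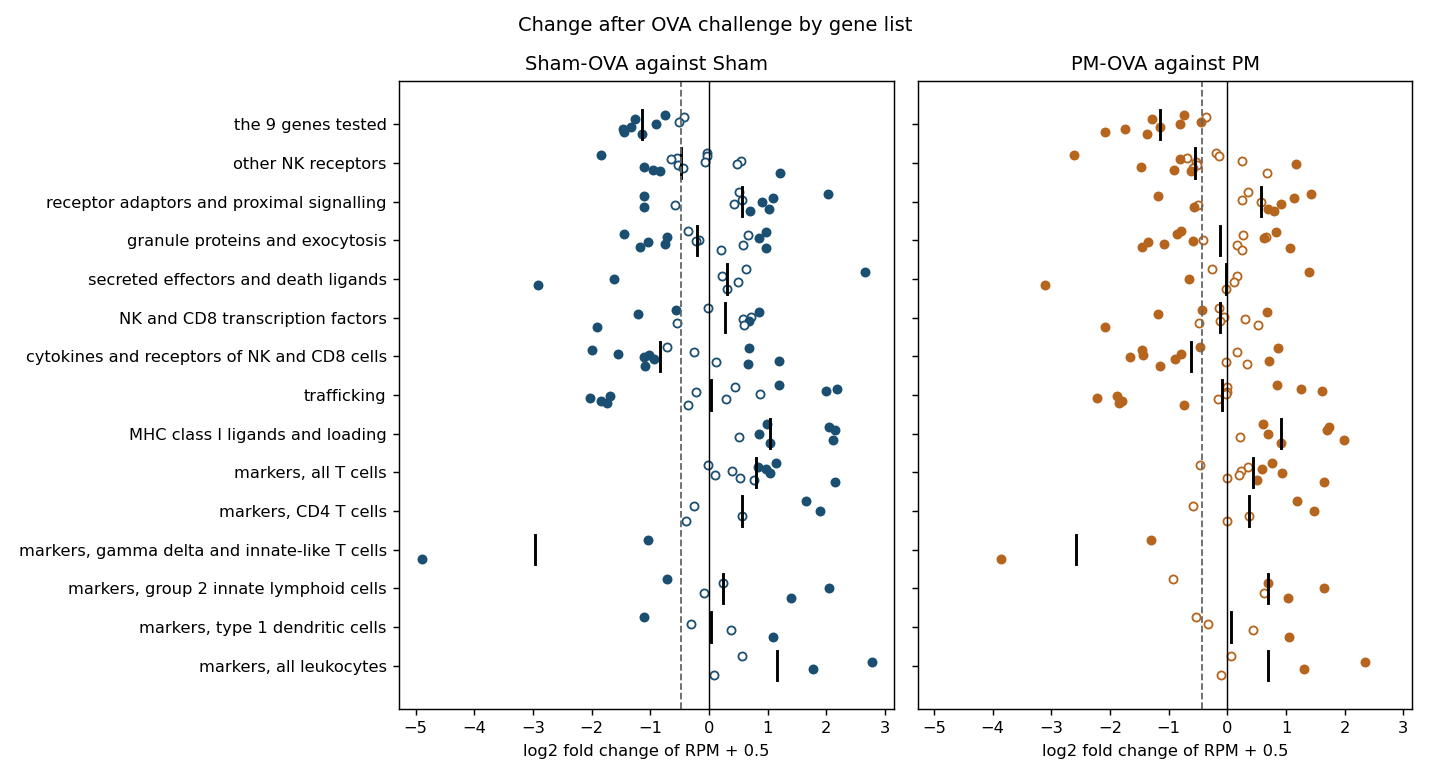
Log2 fold change of RPM + 0.5 (horizontal axes) of every tested gene in 15 lists (vertical axis) in Sham-OVA against Sham and PM-OVA against PM, with filled points where the adjusted p was under 0.05, black bars for list medians, a solid line at 0 and a dashed line at the median of all tested genes. The median of the 9 genes (-1.15 and -1.14) lies left of the dashed line, and that of MHC class I and loading genes (1.04 and 0.92) right of 0.

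Markers of other cells that could carry the same transcripts were read beside these results. The background was again 47.5% of all genes lower and 20.6% higher in Sham, and 45.2% and 20.1% in PM offspring. Of the gamma delta and innate-like T cell list, Trdc and Zbtb16 were tested and both fell in each cohort, Zbtb16 most (-4.89 and -3.86). The summed level of the 3 listed genes was 28.9 to 164 RPM in Sham and 0.932 to 11.3 RPM in Sham-OVA, and 20.2 to 203 RPM in PM and 2.18 to 25.1 RPM in PM-OVA. Trdc is also transcribed in NK cells, and Zbtb16 in non-lymphoid cells. Of 5 group 2 innate lymphoid markers, 2 rose and 1 fell in Sham and 3 rose in PM offspring, with Gata3, shared with CD4 T cells, rising in both (2.04 and 1.65). Areg fell in Sham offspring (-0.71), a call lost under each of the 4 other scalings. Among 4 markers of type 1 dendritic cells, which can carry Cd8a, Xcr1 rose in both (1.09 and 1.05) and Clec9a fell in Sham offspring (-1.11). Of 4 pan-leukocyte genes, 2 rose in each cohort, Coro1a most (2.77 and 2.34), and their summed RPM went from 401 to 778 in Sham to between 1129 and 1809 in Sham-OVA and from 458 to 579 in PM to between 1006 and 1636 in PM-OVA. Lung epithelial markers were abundant in every library (summed RPM at least 22503), with Sftpc rising in both (1.19 and 1.14, called under 3 of 4 other scalings), and of the thymocyte list, checked because thymus can be taken with lung, 4 or 5 of 6 genes stayed under 1 RPM in each group and Cd1d1 alone was tested, rising in Sham offspring (0.75). Ptcra was at 0 in all libraries. The part of other cell types in the changes of the cytotoxic genes was not tested.

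Among the 14 saline libraries, after subtraction of the group means, all 36 pairs of the 9 genes had a correlation above 0. Pearson's r had an adjusted p under 0.05 in 12 pairs and Spearman's rho in 12 (100000 permutations within groups, Benjamini-Hochberg over 36 pairs). The closest pairs joined Ncr1 with Gzma (r = 0.94, p = 3e-05, adjusted p = 0.00054, rho = 0.92, p = 0.00026, adjusted p = 0.0031) and Gzma with Prf1 (r = 0.92, p = 1e-05, the smallest the permutations can give, adjusted p = 0.00036, rho = 0.90, p = 0.00017, adjusted p = 0.0031 for rho, by permutation). Without the 2 libraries farthest from the median of the first gene, r was 0.92 and 0.91. Klre1 and Klrd1, neighbours in the NK gene complex, formed another pair (r = 0.87, adjusted p = 0.0048, rho = 0.82, adjusted p = 0.007, by permutation), with r of 0.60 without the 2 farthest libraries. Cd8a and Cd8b1 were less close (r = 0.72, adjusted p = 0.018, rho = 0.68, adjusted p = 0.037, by permutation, and r = 0.62 without the 2 farthest). The lowest value was that of Klre1 with Cd8b1 (r = 0.09, adjusted p = 0.79, rho = 0.16, by permutation). Genes measured in 1 library share its depth and its piece of tissue. The share of all gene pairs that correlate in this way was not computed, so the counts of 36 and 12 have no background beside them. Some of 13528 other genes reached similar values, such as Was with Cd8b1 (r = 0.92) and Gmpr2 with Ncr1 (r = 0.89). Sham replicate 1, which went against the stated sex, is among the 14 libraries, and values without it were not computed.

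**Figure D5:**
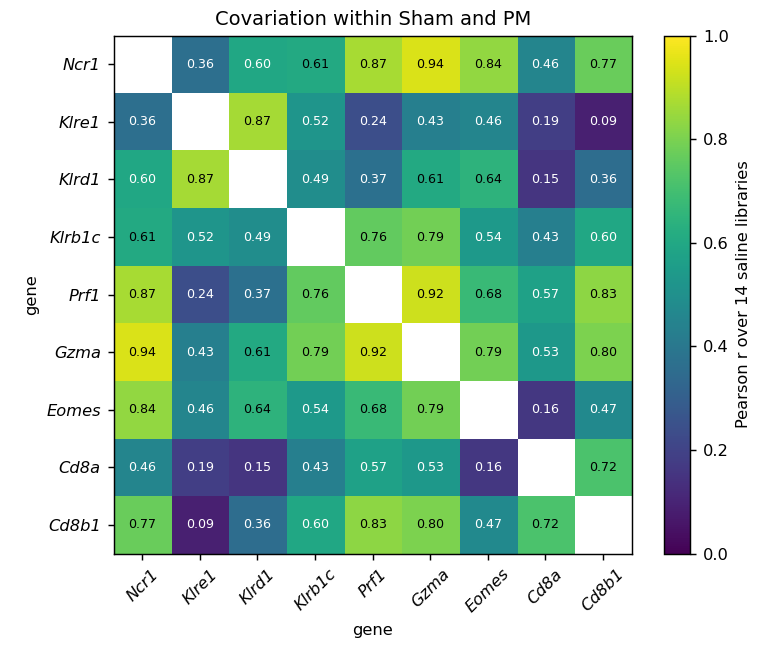
Pearson's r between the 9 detected genes (both axes) over the 14 Sham and PM libraries, from log2(RPM + 0.5) after subtraction of the group means, on a colour scale from 0 to 1. Ncr1, Gzma and Prf1 form a block with r from 0.87 to 0.94, and Klre1 and Klrd1 form a pair at 0.87.

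Of 13528 other genes compared over these 14 libraries, those most like Ncr1 were Fasl (r = 0.91), Gmpr2 (0.89), Nkg7 (0.89), Ccl5 (0.88) and Spib (0.88), as a description without a test. Fasl, Nkg7 and Ccl5 are known products of cytotoxic lymphocytes. After OVA, Fasl fell in Sham (-1.62, adjusted p = 0.00198, limma) and PM offspring (-0.65, adjusted p = 0.0153), Spib rose in Sham offspring (1.37, adjusted p = 0.00737), and Nkg7 (-0.17 and -0.41) and Ccl5 (0.22 and 0.17) did not pass the test. Gmpr2 fell in Sham (-0.72, adjusted p = 0.0481, limma) and PM offspring (-1.14, adjusted p = 0.0251). Those most like Cd8b1 were Was (r = 0.92), Cxcr3 (0.92), B2m (0.91), Prex1 (0.91) and Ptpn6 (0.91), of which B2m rose (0.98 and 0.61) and Ptpn6 rose (1.38 and 0.92) after OVA. Was (-0.30 and -0.85), Cxcr3 (-0.23 and -0.004) and Prex1 (0.07 and 0.06) did not pass the test in either cohort. Genes that varied with Ncr1 or Cd8b1 between saline libraries thus did not share one direction after OVA.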

How the data were processed

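Poly(A) RNA-Seq of lung from 23 offspring (7 Sham, 7 PM, 5 Sham-OVA, 4 PM-OVA) was analysed, with groups taken from the sample titles. According to the methods of the study, the authors trimmed single-end reads with Trimmomatic, mapped them to GRCm38 with Bowtie2, which does not split reads over introns, and quantified them in SeqMonk. The values were deposited by the authors as RPM in a table named after RPKM. In each library 100% of values were whole multiples of 1 read (tolerance 0.02 reads), so reads were recovered, and tests planned for RPKM were run on RPM.

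Values were transformed to log2(RPM + 0.5), which understates changes of low genes, and genes were kept where 4 or more libraries reached 0.5 RPM. The 16795 genes left were fitted with limma 3.58.1 (R 4.3.3, trended variance), using the groups compared, or all 4 for the interaction, and called at a Benjamini-Hochberg adjusted p under 0.05. DESeq2 1.42.0 and edgeR 4.0.16 on recovered reads, other pseudocounts, filters and scalings, thinned reads, a joint fit, a replicate block, the study threshold and leaving out each library were alternatives, and leaving out the shallow libraries together was added after seeing the data. The fits were run on simulated data drawn around the Sham means, with 200 of 16795 genes changed by 2 log2 units. That setting held neither the shift over most genes nor the spread of the OVA libraries, so it does not cover them. Reads on genes ranged from 2298645 to 17393579, which limits the precision of low genes, and no 2 libraries of a group agreed within sampling noise.

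The 10 genes and the other lists were chosen with earlier results of these data known. From each other list, the largest called rise and fall in each OVA comparison were named, with the 5 genes most like Ncr1 and Cd8b1 and markers where a check is reported. Others named from the lists, including Klrk1, Klri2, Il2rb, S1pr5, Tbx21 and Ifng, and the motifs were chosen after the values or sequences had been seen. Coordinates are from GENCODE and promoters from RefSeq. Methylation was not analysed here, and 1 gene that the rule would name is not reported here. Tables and figures were made in Python 3.11.15 (matplotlib 3.10.9).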

Additional observations from a re-analysis of the deposited data

Results flagged for a closer look

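In PM offspring, 1 library stood far above the other 6 for both granule protein genes. PM replicate 3 held 70.9 RPM of Gzma and 43.2 RPM of Prf1, and its gap to the next library was 0.637 and 0.638 of the whole range of the group, above Dixon's critical value of 0.568 for 7 samples. Of 36 sets of a gene and a group checked, these 2 were the ones that passed, and chance passes about 1 in 20. Without PM replicate 3, Prf1 still fell after OVA and Gzma, with a log2 fold change of -0.36, had an adjusted p of 0.0682 (limma).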

How the results depend on the processing

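Of the 9 genes, 7 were called lower after OVA in the Sham cohort and 8 in the PM cohort, beside 47.5% and 45.2% of all tested genes. In Sham offspring 5 were called under median-of-ratios scaling, quantile normalisation and edgeR, beside 6361 of 16753, 5812 of 16795 and 5669 of 16795 tested genes lower. With DESeq2 and without the shallow library 6 were called there, beside 6391 and 7925 of 16795 genes lower. In PM offspring 5 were called under median-of-ratios scaling, quantile normalisation and the replicate block, beside 35.7%, 32.4% and 33.9% of all tested genes lower. With edgeR, DESeq2 and without the shallow libraries 4 were called, beside 30.3%, 32.0% and 31.3%. Under the threshold of the study, applied to limma, 0 were called in each cohort. Leaving out 1 library gave 6 to 7 in Sham and 5 to 8 in PM offspring, with 5 without PM-OVA replicate 4, and 0 in the other 3 comparisons. The share of all genes called lower then ran from 45.4% to 48.5% in Sham and from 38.6% to 50.5% in PM offspring. Cd8b1 changed sign in Sham offspring under quantile normalisation (0.0777), edgeR (0.0912) and DESeq2 (0.0104), and in PM offspring under quantile normalisation (0.0879) and without the shallow libraries (0.12), and was not called under any of them. The share of lower calls among all called genes was 69.8% in Sham and 69.2% in PM offspring, 56.4% and 55.0% under median-of-ratios scaling, 51.5% and 50.7% under quantile normalisation, and 50.4% and 49.9% with edgeR. Over all genes the threshold of the study left 758 calls in Sham and 48 in PM offspring, against 11431 and 10968. It was applied to limma, whereas the study used DESeq2 on raw counts. The interaction had 721 calls without the shallow libraries, against 0. The cause was not tested. The labels do not say that replicate numbers pair samples, and deviations of same-numbered libraries correlated at -0.07 to 0.12 in the Sham cohort, -0.10 to 0.06 in the PM cohort, -0.25 to 0.10 between PM and Sham and -0.31 to 0.62 between the OVA groups, so not every pair exceeded 0.1 in any comparison. With the replicate block 7 genes were called in the Sham cohort and 5 in the PM cohort, beside 42.4% and 33.9% of all tested genes lower. For the 9 genes, the maternal comparisons and the interaction stayed at 0 calls under every alternative run, the block included. Depth limits the low genes in the 3 shallow libraries, where Klre1 had 0, 3 and 0 reads.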
